A study of Drosophila melanogaster with 6 samples.

Results

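The genes of cytosolic ribosomal proteins were followed in ovaries of Drosophila melanogaster. They were taken by name from the deposited RefSeq tables, as every Gene Name that begins with RpL, RpS or RpLP and a number and does not contain "like", and the transcript entry with the highest mean over the arrays stood for each gene. The rule gave 83 genes from 152 entries, out of 13690 genes in all, with 49 of the large subunit and 34 of the small subunit. No member was at 0, so all 83 entered the test. The fit covered every gene of the table with a signal, and p-values were adjusted over all of them. Ovary total RNA was hybridized to tiling arrays in 6 samples, of which 3 bore the label uap56 and 3 the label vasa. The ovaries came from flies kept at 25 °C on cornmeal food, the adults with yeast paste. The sources used here give neither alleles nor the age or number of the flies, so a group is called by its label alone, and no sample of flies with both genes intact was analysed here. Both labels name RNA helicases of the DEAD-box family, UAP56 acting in splicing and nuclear export and Vasa in germ cells. The vasa gene, vas, stood at 2045, 1686 and 1364 on the uap56 arrays and at 267, 242 and 383 on the vasa arrays, while Hel25E, which encodes UAP56, stood at 1617, 1598 and 1042 and at 1800, 1416 and 1616, with overlap.

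A cytosolic ribosome joins a small subunit, which binds the mRNA and decodes it, to a large subunit, which forms the peptide bond. Each is built on ribosomal RNA with a fixed set of proteins, in general 1 copy of each, and the genes of these proteins are expressed together and at high levels in growing cells. In the fly ovary, the nurse cells make the ribosomes that are loaded into the egg. Many of these genes are known in Drosophila as Minute loci, where loss of a single copy slows development and shortens the bristles. Some of the proteins are encoded by a pair of paralogues, and a copy can be expressed mainly in the germline.

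The values are intensities, summarised for each transcript and normalized by the authors on a linear scale with a floor of 1. How probes were combined, and whether the value is per length, is not given, so the order of levels below is an order of signals and not of transcript numbers. Of the 83 genes, 78 lay in the top 5% of all genes and 56 in the top 1%. These 78 had means over the 6 arrays between 1969.5 for RpL34a and 14228.5 for RpS29, where the median gene of the table stood at 129. The 5 strongest members were RpS29 (14228.5), RpS18 (12575), RpS27A (12288), RpS28b (12094) and RpLP2 (11633). RpS29, RpS18 and RpS28b are small subunit proteins, RpS27A is made as a fusion with ubiquitin, and RpLP2 is an acidic protein of the stalk. The brightest gene of the table had a mean of 22294, so the members lay below the top of the scale.

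The other 5 genes, all paralogues of a bright gene or named as such, were far below. RpS10a had a mean of 140.1, RpS28a of 121, RpL37b of 106, RpS19b of 62.1 and RpL10Aa of 6.42. No member lay between 140.1 and 1969.5. Without these 5, the median level was 6329 over 47 large subunit genes and 7003 over 31 small subunit genes, and the ranges of the subunits overlapped nearly throughout, from 1969.5 to 11633 and from 3268 to 14228.5.

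**Figure D1:**
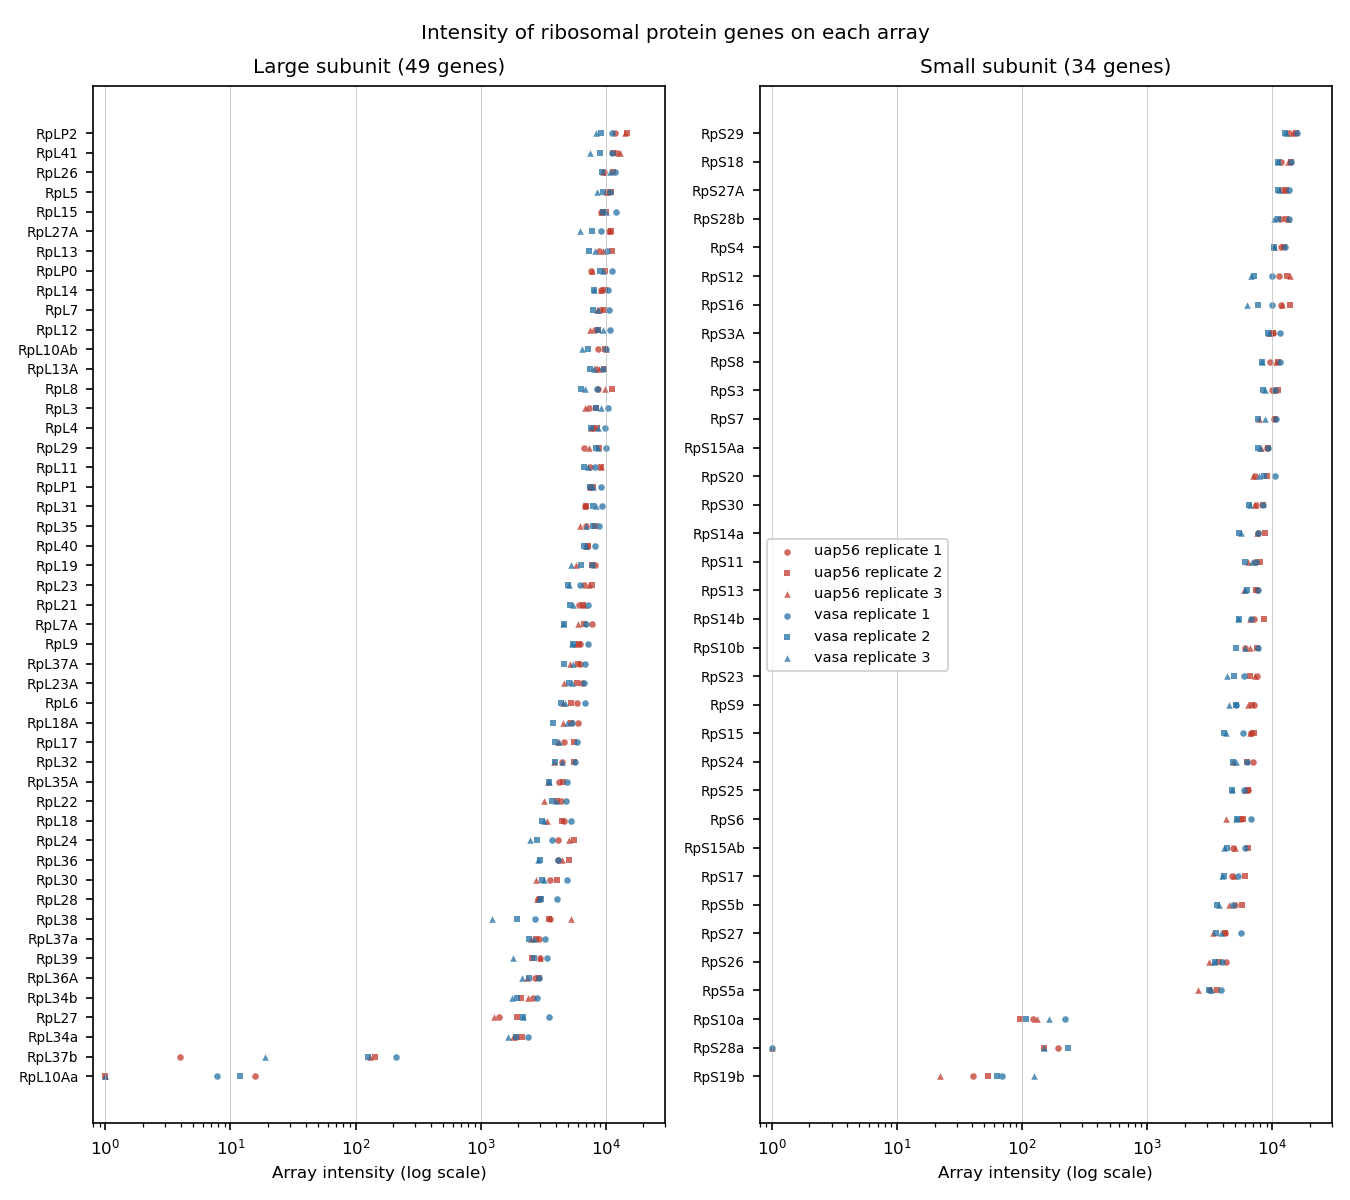
Intensity of each of the 83 ribosomal protein genes on each of the 6 arrays (x axis, log scale, arbitrary units), large subunit on the left and small subunit on the right, sorted by mean. The 78 bright genes sit between 1236 and 15758 on every array, while RpS10a, RpS28a, RpL37b, RpS19b and RpL10Aa stay at or below 232.

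The ribosomal protein genes moved together between arrays of the same group, and vasa replicate 1 stood apart. For each gene the deviation of its log2 value from its mean over the 6 arrays was taken. Over the 78 bright members the median deviation was 0.05, 0.14 and -0.06 on uap56 replicates 1, 2 and 3. On vasa replicate 1 it was 0.20, against -0.19 and -0.15 on vasa replicates 2 and 3. Vasa replicate 1 was the highest vasa array for 78 of 78 bright members, for 61.4% of the 607 other genes in the top 5% and for 40.3% of all genes. The corresponding medians of these 607 genes were smaller, 0.08 on vasa replicate 1 and -0.06 and -0.07 on the other vasa arrays. Calls that changed without vasa replicate 1 are given below, and changed signs for 42 of the members only. The cause of the shift was not tested.

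**Figure D2:**
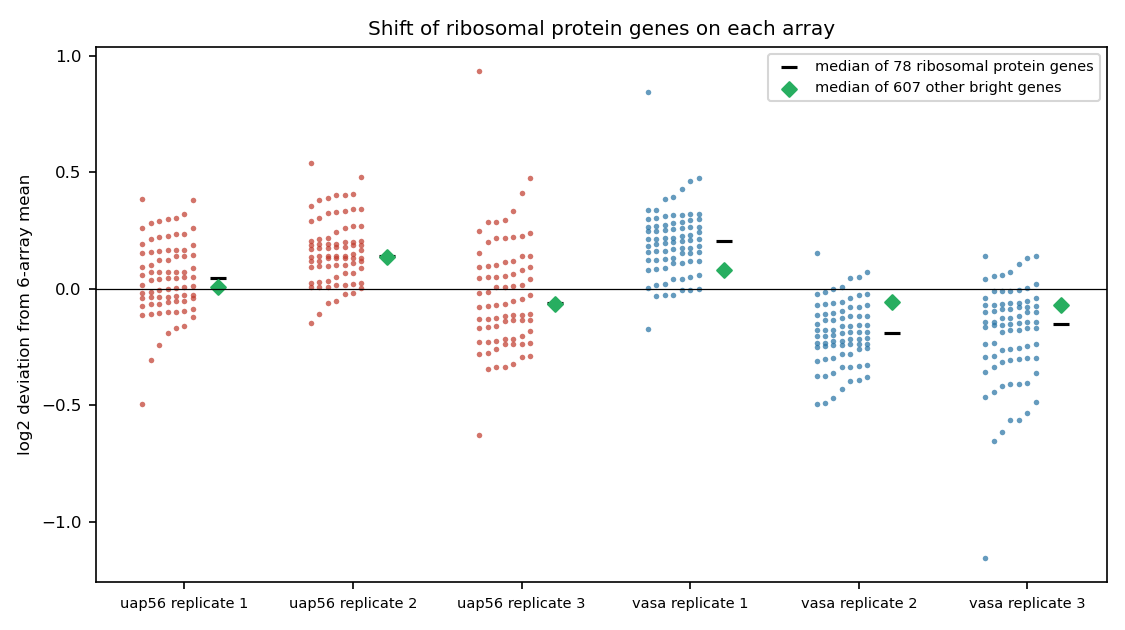
Deviation of each of the 78 bright ribosomal protein genes from its own mean over the 6 arrays (y axis, log2 scale), by array, with the median of these genes (black bar) and of 607 other bright genes (green diamond). The median is 0.20 on vasa replicate 1 and -0.19 and -0.15 on the other vasa arrays.

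Between uap56 and vasa ovaries the ribosomal protein genes differed little as a group. The median log2 difference, uap56 minus vasa, was 0.09 over the 83 genes and 0.02 over all genes, and 75 of 83 members (90.4%) differed by less than 1.5-fold, against 72.5% of all genes and 85.5% of the 607 other bright genes. In all, 54 members were above 0 and 29 below. The median was 0.20 without vasa replicate 1, with the same sign, and -0.02 after quantile normalization, so its sign depended on the normalization. The median standard error was 0.15 over the members and 0.15 over the 607 other bright genes, against 0.30 over all genes. In bulk RNA, fewer cells of a type and less RNA per cell cannot be told apart. No label ties replicates to separate animals, and the p-values therefore rest on a spread between samples that may be technical.

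In limma with an intensity trend and robust hyperparameters, 1 of the 83 genes passed an adjusted p of 0.05. It was RpS12, higher in uap56, and 0 were called higher in vasa. Of all genes, 3.83% were called, 2.48% higher in uap56 and 1.35% higher in vasa, and of the 607 other bright genes 64 were called. The members' share was below the background in this fit, but it rested on 1 call. The order depended on the arrays used, since without vasa replicate 1 12 members passed toward uap56 against 1.99% of all genes. At an unadjusted p under 0.05 there were 20 members, 16 higher in uap56 and 4 higher in vasa, or 24.1%, against 18.2% of all genes and 38.2% of the 607 other bright genes. In 13 members the 3 uap56 arrays all lay above the 3 vasa arrays, and in 3 they all lay below, where 13.5% and 10% of all genes did so, as did 141 and 111 of the 607 other bright genes. The limma fit with a single variance prior called 0 members, and 1 gene each way in the whole table. In a limma fit over all 20765 entries, chosen after seeing the data, the brightest entry of 4 members passed toward uap56, where 2.9% of entries did, and 0 toward vasa, where 2.19% did. These were RpS12 (adjusted p = 0.0309), RpS9 (0.0369), RpS16 (0.0375) and RpL24 (0.0424).

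**Figure D3:**
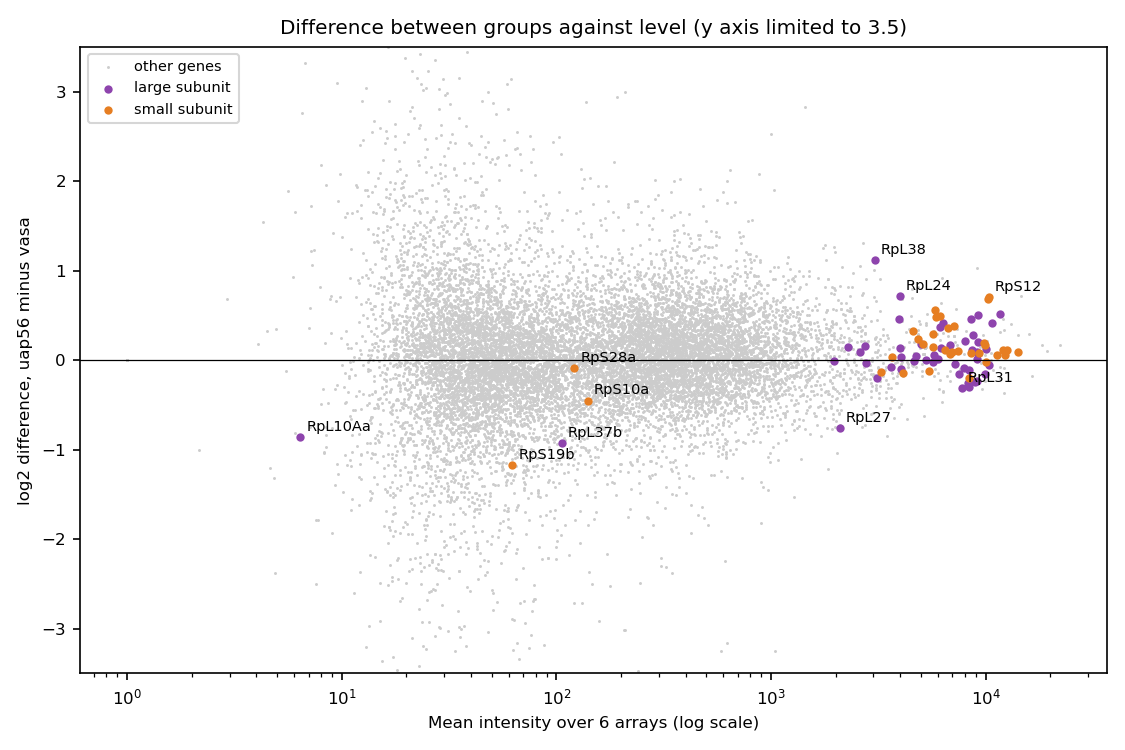
log2 difference, uap56 minus vasa (y axis), against mean intensity over 6 arrays (x axis, log scale) for all genes (grey) and for the ribosomal protein genes of the large (purple) and small (orange) subunit. Most members sit close to 0 at the bright end, RpL38 at 1.12 and RpL27 at -0.76 stand out among the bright ones, and RpS19b lies at -1.17 with a weak signal.

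Several small subunit genes were at the upper end. RpS12, a protein of the small subunit that is known in Drosophila for its part in cell competition between Minute and normal cells, stood at 11390.5, 13066 and 13871 on the uap56 arrays and 9967, 7084 and 6758 on the vasa arrays. All uap56 arrays were above all vasa arrays, the nearest being vasa replicate 1. The means were 12776 ± 1266 in uap56 and 7936 ± 1766 in vasa (SD, n = 3 each), a ratio of means of 1.61, with a log2 difference of 0.70 ± 0.16 (SE) and an adjusted p of 0.0447 in limma. Its adjusted p ran from 0.0166 to 0.237 over the alternatives and was above 0.05 with the single variance prior, with the replicate number as a block and without any 1 of the arrays other than vasa replicate 1. The other entry of RpS12 gave a log2 difference of 0.73. Entries of the same gene may share probes, so here and below they cannot be taken as separate measurements.

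RpS16, whose product lies at the head of the small subunit, stood at 11808, 13758.5 and 12054 on the uap56 arrays and 9883, 7618 and 6266 on the vasa arrays. Its groups did not overlap, and the means were 12540.1 ± 1062 in uap56 and 7922 ± 1827 in vasa (SD, n = 3 each), a log2 difference of 0.68 ± 0.16 (SE) with an adjusted p of 0.0528 in limma. It missed the threshold in the fit over genes and passed it in the fit over entries. RpS15, which lies close to the decoding site, stood at 6786, 7142 and 6681 on the uap56 arrays and 5834, 4084 and 4262 on the vasa arrays, again with no overlap. Its log2 difference was 0.56 ± 0.15 (adjusted p = 0.0740 in limma), and 0.53 on its other entry.

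RpS9, named after its values were seen, stood at 7123, 6922 and 6429 on the uap56 arrays and 5131, 5081 and 4499 on the vasa arrays. Its groups did not overlap, and vasa replicates 1 and 2 were nearly equal. The log2 difference was 0.48 ± 0.11 (SE, adjusted p = 0.0512 in limma), and the other 2 entries gave 0.53 and 0.52. In the fit over all entries these other 2, which may share probes with the first, had adjusted p-values of 0.0261 and 0.0235 in limma. RpS23, a protein of the decoding centre, had a log2 difference of 0.50 and RpS25 of 0.29, both with arrays that did not overlap and both named after their values were seen (adjusted p = 0.0859 and 0.252 in limma).

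Among large subunit genes the greatest difference was that of RpL38, known from the mouse for a role in axial patterning. RpL38 stood at 3599.6, 3517 and 5256 on the uap56 arrays and 2704, 1958 and 1236 on the vasa arrays. It was the only member other than the weak RpS19b with a log2 difference of at least 1 in size, 1.12 ± 0.28 (SE), with an adjusted p of 0.0662 in limma. The means were 4124 ± 981 in uap56 and 1966 ± 734 in vasa (SD, n = 3 each), a ratio of means of 2.10. The arrays of a group also differed widely, with vasa replicate 1 above vasa replicate 3 more than 2-fold. RpL24, which forms a bridge between the subunits, stood at 4166, 5563 and 5087 on the uap56 arrays and 3750.3, 2844 and 2501 on the vasa arrays, and its log2 difference was 0.71 ± 0.17 (adjusted p = 0.0588 in limma). In RpL24 too the groups did not overlap, and the lowest uap56 array was only slightly above vasa replicate 1.

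RpL27A (0.50, adjusted p = 0.0897), RpL8 (0.46, adjusted p = 0.126), RpL23 (0.42, adjusted p = 0.110) and RpL41 (0.42, adjusted p = 0.167), named after their values were seen, were the remaining large subunit genes with arrays apart toward uap56, besides RpLP2 below. None of them passed in limma. Without vasa replicate 1, 12 members passed toward uap56, where 1.99% of all genes did, and 0 toward vasa, where 0.745% did. They were RpL23, RpL24, RpL27A, RpL36, RpL38, RpL41, RpLP2, RpS12, RpS14a, RpS15, RpS16 and RpS23. After quantile normalization 4 members passed toward uap56 (2.75% of all genes) and 5 toward vasa (2.51% of all genes). The former were RpL24, RpS12, RpS15 and RpS16, and the latter RpL3, RpL12, RpL27, RpL29 and RpL31.

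**Figure D4:**
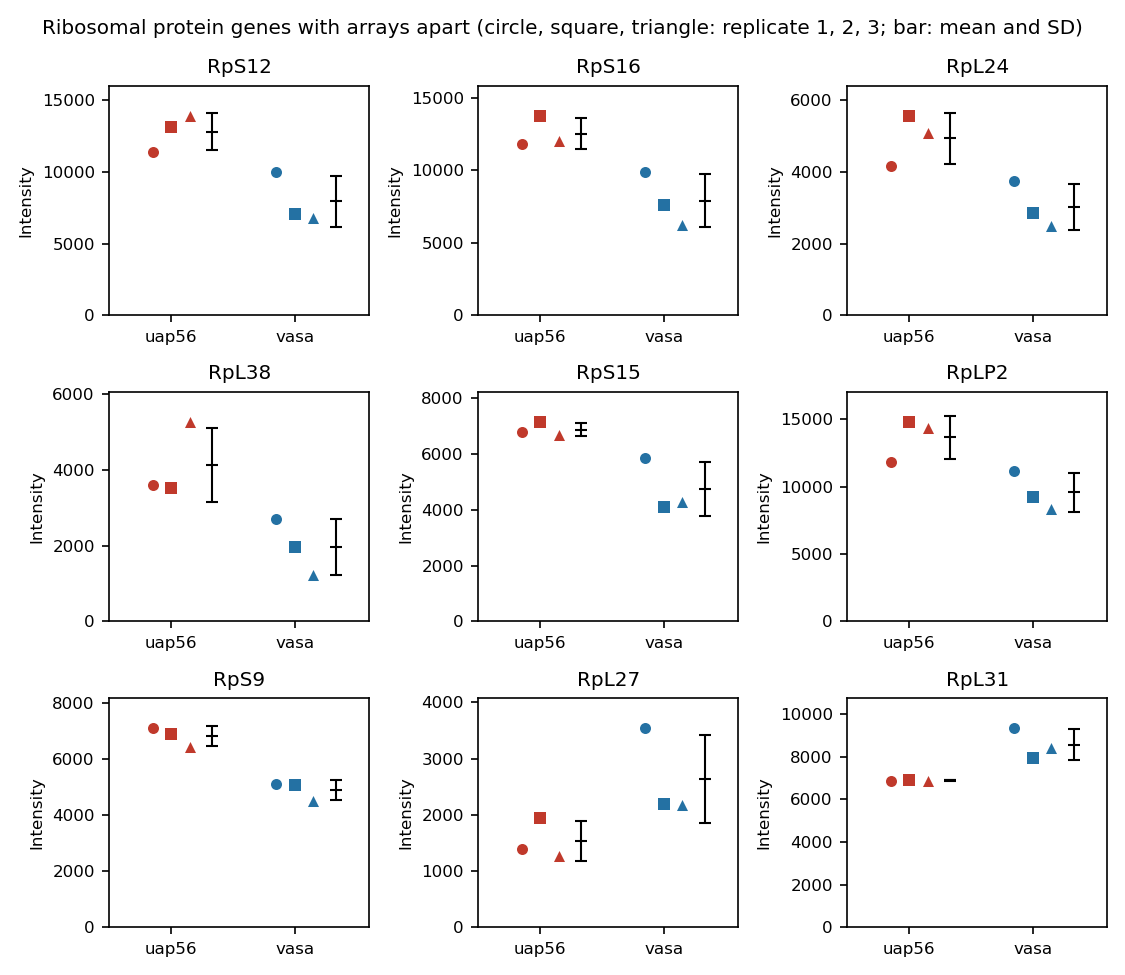
Intensity (y axis, linear from 0) of 9 ribosomal protein genes on each uap56 (red) and vasa (blue) array, with the mean and SD of 3 arrays beside the points. The arrays of the groups do not overlap in any of the 9, RpS12 to RpS9 being higher in uap56 and RpL27 and RpL31 higher in vasa, and vasa replicate 1 is the highest vasa array in each.

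In the opposite direction, RpL27 was the bright member with the greatest difference toward vasa. It stood at 1401, 1947 and 1277 on the uap56 arrays and 3544, 2193 and 2171 on the vasa arrays. The uap56 arrays were all below the vasa arrays, of which replicate 1 was well above the other two. The means were 1542 ± 357 in uap56 and 2636 ± 786 in vasa (SD, n = 3 each), a ratio of means of 1.71 toward vasa, with a log2 difference of -0.76 ± 0.23 (SE, adjusted p = 0.105 in limma). RpL31, at the rim of the exit tunnel, stood at 6869, 6923 and 6860.3 on the uap56 arrays and 9345, 7932 and 8399 on the vasa arrays. Its uap56 arrays were nearly equal and all below the vasa arrays, with a log2 difference of -0.31 ± 0.11 (adjusted p = 0.163 in limma). RpL3, a large protein close to the peptidyl transferase centre, had -0.30 with overlapping arrays and RpL12, at the base of the stalk, -0.24, both named after their values were seen.

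Some of these genes lie across others, and the double-stranded label does not keep the strand. In the Release 6 gene table, which was used for names and for neighbours only, the span of 21 of the 83 genes overlapped another protein-coding gene, among them 6 of the 16 with arrays apart. RpL27 overlapped Idh3g, whose own log2 difference was -0.24 at a mean intensity of 1005, with arrays that were also all lower in uap56. RpL31 overlapped clos, whose difference was -0.46, again with arrays apart toward vasa, at a mean of 513. RpL24 overlapped CG7099 (-0.03) and RpS15 overlapped CG4945 (0.31), both weak. RpL23 overlapped inaD (0.23) and RpL41 overlapped NaCP60E (-0.63, opposite in sign to RpL41), also with weak signals. Whether such neighbours contribute to the members' signals was not tested.

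The balance of the subunits differed little between the groups. The median log2 difference was 0.11 over 34 small subunit genes and 0.03 over 49 large subunit genes, and 26 of the former (76.5%) and 28 of the latter (57.1%) were above 0. The share above 0 was 51.4% for all genes and 56.5% for the 607 other bright genes. Among the 13 genes with arrays apart toward uap56, 7 were of the large and 6 of the small subunit. Toward vasa there were 2 of the large subunit, RpL27 and RpL31, and 1 of the small, RpS19b. On each array the median level of the 31 bright small subunit genes was above that of the 47 bright large subunit genes. The log2 ratio of these medians was 0.15, 0.29 and 0.20 on the uap56 arrays and 0.08, 0.13 and 0.16 on the vasa arrays. The ratios of the groups overlapped, since vasa replicate 3 was above uap56 replicate 1. Large minus small, the medians of the differences gave -0.08, with -0.03 without vasa replicate 1 and -0.04 after quantile normalization.

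Within the stalk, the lateral arm of the large subunit that recruits translation factors, the members did not run alike. RpLP2 was at 11859, 14811 and 14360.5 on the uap56 arrays and 11167, 9225 and 8378 on the vasa arrays. It did not overlap between the groups and had a ratio of means of 1.43 toward uap56 and a log2 difference of 0.52 ± 0.14 (SE, adjusted p = 0.0791 in limma). RpLP0, the base of the stalk, was at 7674, 9853 and 7722 on the uap56 arrays and 11309, 8945 and 9458 on the vasa arrays, and RpLP1, the partner of RpLP2, at 7539, 7924 and 7528 on the uap56 arrays and 9161, 7467 and 7844 on the vasa arrays. Both overlapped, with log2 differences of -0.24 (adjusted p = 0.424) and -0.08 (adjusted p = 0.765). The value of RpLP1 was 0.0016 without vasa replicate 1.

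Other members with well-known roles had smaller differences, and none passed in limma. RpL5 and RpL11 bind 5S ribosomal RNA together, and their log2 differences were 0.13 and 0.22 (adjusted p = 0.645 and 0.429 in limma). RpS27A and RpL40, both made as fusions with ubiquitin, had 0.06 and -0.04. RpS6, the target of S6 kinase downstream of TOR, had -0.12, and RpS3, at the mRNA entry channel, 0.19. The differences of RpS29 (0.09), RpS18 (0.11), RpS27A and RpS28b (0.12), the brightest members, were all below 0 after quantile normalization. Without vasa replicate 1, RpL40 was at 0.0533 and RpS6 at 0.0035, both above 0, and RpS6 was at 0.0164 without uap56 replicate 3.

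Of 8 pairs of paralogues under the naming rule, 4 had a strong signal from both copies. In each pair the log2 ratio of the copies was taken within each array, which removes any shift that both share. For RpS5a and RpS5b, of which RpS5b is known in Drosophila as the copy enriched in the female germline, the ratio of RpS5a to RpS5b was -0.67, -0.66 and -0.80 on the uap56 arrays and -0.33, -0.21 and -0.21 on the vasa arrays. All uap56 ratios were below all vasa ratios, by more than the spread within a group. The means were -0.71 ± 0.08 in uap56 and -0.25 ± 0.07 in vasa (SD, n = 3 each), a difference of -0.46 with an exact two-sided permutation p of 0.1, the smallest that 3 against 3 arrays can give. RpS5a stood at 3159.6, 3637 and 2568 on the uap56 arrays and 3889, 3104 and 3249 on the vasa arrays. RpS5b stood at 5041, 5736 and 4473 on the uap56 arrays and 4884, 3590.2 and 3764 on the vasa arrays. Each gene by itself overlapped between the groups, with log2 differences of -0.14 (adjusted p = 0.719 in limma) for RpS5a and 0.32 (adjusted p = 0.310) for RpS5b. RpS5b was the brighter copy on all 6 arrays.

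The other pairs with a strong signal from both copies had ratios that overlapped between the groups. RpS14a and RpS14b, neighbours on the X chromosome that encode the same protein, had log2 ratios of 0.11, 0.02 and 0.19 on the uap56 arrays and 0.18, 0.00 and 0.08 on the vasa arrays. Their differences were 0.38 and 0.36, and as near-identical copies they may share probes, so their signals cannot be taken as separate. RpS15Aa exceeded RpS15Ab on every array, with ratios of 0.89, 0.54 and 0.71 on the uap56 arrays and 0.62, 0.84 and 0.96 on the vasa arrays and differences of 0.08 and 0.18. The same limit on shared probes holds for this pair. RpL34a and RpL34b had ratios of -0.46, 0.04 and -0.41 on the uap56 arrays and -0.24, -0.03 and -0.11 on the vasa arrays and differences of -0.01 and 0.14. RpL34a was above 0 without vasa replicate 1 (0.13), uap56 replicate 1 (0.0063) or uap56 replicate 3 (0.0452). The exact permutation p was 0.7 for RpS14, 0.6 for RpS15A and 0.4 for RpL34.

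**Figure D5:**
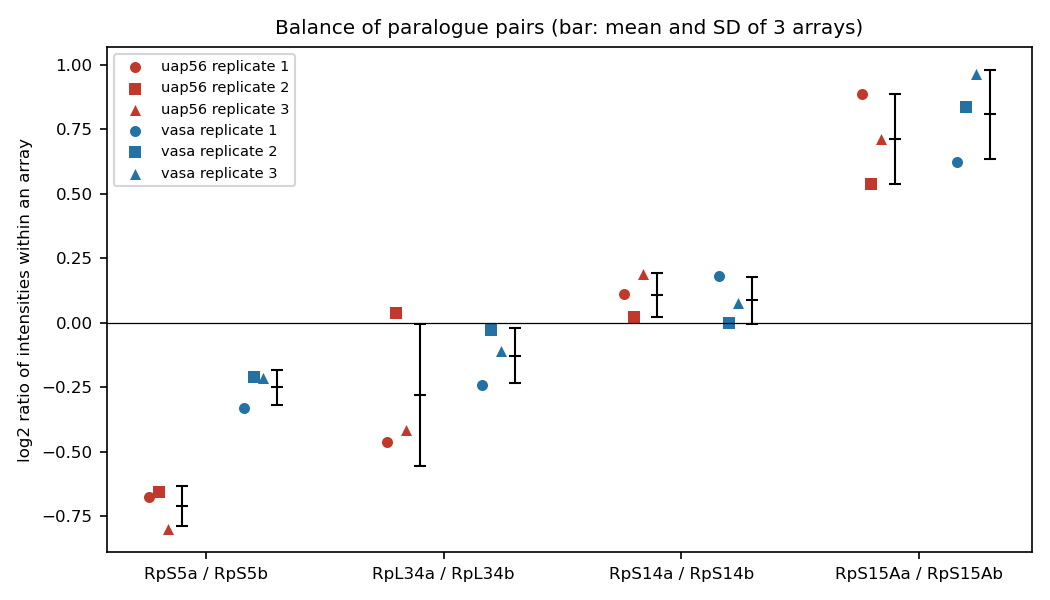
log2 ratio of the first to the second paralogue within each array (y axis) for 4 pairs, uap56 in red and vasa in blue, with the mean and SD of 3 arrays. For RpS5a over RpS5b the uap56 ratios lie between -0.80 and -0.66 and the vasa ratios between -0.33 and -0.21, while the groups overlap in the other pairs.

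In the remaining 4 pairs 1 copy carried nearly all the signal. RpS10b stood at a mean of 6496 and RpS10a at 121, 95.5 and 132 on the uap56 arrays and 221, 108 and 163 on the vasa arrays. RpS10a overlapped between the groups (log2 difference -0.45, adjusted p = 0.487 in limma), while RpS10b was at 0.12, and at -0.0141 without vasa replicate 2. The ratio of RpS10a to RpS10b was -5.64, -6.29 and -5.66 on the uap56 arrays and -5.11, -5.56 and -5.21 on the vasa arrays, lower on every uap56 array than on any vasa array (exact permutation p = 0.1, the smallest possible). RpL37a stood at 2771 (log2 difference -0.03, and 0.0928 without vasa replicate 1 and 0.0306 without uap56 replicate 3) and RpL37b at 3.98, 142 and 131 on the uap56 arrays and 213, 126 and 19 on the vasa arrays, with arrays of each group both near the bottom of the scale and well above it. RpS28b stood at 12094 and RpS28a at 193, 151 and 1 on the uap56 arrays and 1, 232 and 149.7 on the vasa arrays. RpL10Ab stood at 8692 (log2 difference 0.29) and RpL10Aa at 15.7, 1 and 1 on the uap56 arrays and 7.80, 12 and 1 on the vasa arrays. RpS28a was at the floor of 1 on 1 array of each group, and RpL10Aa on 2 uap56 arrays and 1 vasa array, and RpL37b fell to 3.98 on uap56 replicate 1, so their differences and the ratios of their pairs carry no direction.

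RpS19b, the only copy of RpS19 under the naming rule, had 40.2, 53.4 and 21.9 on the uap56 arrays and 68.8, 62.7 and 125 on the vasa arrays. The uap56 arrays were all below the vasa arrays, but the signal was weak, below the median gene. Its log2 difference was -1.17 ± 0.44 (SE, adjusted p = 0.199 in limma). RpS19a was not analysed here. The similar names RpL37a and RpL37A belong to different proteins, and RpL37A stood at 5722 with a log2 difference of 0.06.

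The members were also set out by their place in the genome. RpL5, RpL15 and RpL38 are known to lie in the heterochromatin next to the centromeres, on arms 2L, 3L and 2R. Their differences were 0.13, -0.15 and 1.12, and the last alone had arrays apart. RpS3A, the only member on chromosome 4, was at -0.02. By arm the medians were 0.06 over 15 genes on 2L, 0.18 over 19 on 2R, 0.10 over 13 on 3L, -0.0011 over 22 on 3R and 0.08 over 13 on the X chromosome. Ribosomal protein genes of flies often host small nucleolar RNA genes in their introns. Of the 83 genes, 28 had at least 1 inside their span in the gene table, with a median difference of 0.08, and the other 55 had 0.11.

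Where a gene had several transcript entries, the entries ran close together, but they may share probes and cannot be taken as separate. Of the 83 genes, 40 had several entries, 37 of them with values that differed between entries. The log2 differences of a gene's entries spread by a median of 0.04 over these 37 and by 0.26 at most, in RpL28. In 4 genes, among them RpL28 and RpL32, the entries differed in sign, around 0. The entries of RpL3 ran from -0.35 to -0.17.

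Ribosomal proteins that the files list under other names were set beside these genes. Qm, which encodes RpL10, had a log2 difference of 0.11, sop (RpS2) of 0.09 and sta (RpSA) of -0.18, and their means of 10249.7, 8707 and 6575 lay in the range of the members. The gene oho23B (RpS21) had 0.00 on its brightest entry, at a mean of 5345. Its other 3 entries, which carry the same values, stood at 1705, 2539 and 2808 on the uap56 arrays and 1507, 956 and 924 on the vasa arrays, a log2 difference of 1.06 with no overlap (adjusted p = 0.0337 in a limma fit over all entries). The entries of this gene thus disagreed. The genes left out as "like" were set beside them too, with means of 58.2 for RpL22-like, 287 for RpLP0-like, 835 for RpL24-like and 1389 for RpL7-like, and their differences were 0.08, -0.20, 0.53 and 0.25.

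For comparison, the 72 mitochondrial ribosomal protein genes had a median log2 difference of 0.19, with 2 called toward uap56 and 0 toward vasa. The 6 measured translation elongation factors had 0 called and a median of -0.0039. Of 18 measured genes of ribosome biogenesis, 1 was called toward vasa and 0 toward uap56 (median -0.13). Of all genes, 2.48% were called toward uap56 and 1.35% toward vasa. These lists were not tested against the members. Follicle cell and germline markers were present at unequal levels. Of the follicle cell markers 7 of 10 lay in the top 5% of genes and of the germline markers 3 of 9 (nos, osk and otu), while slbo (85.3) and grk (87.4) lay below the median gene. The summed intensity of 10 follicle cell markers ran from 82931 to 105194 on the uap56 arrays and from 79721 to 93616 on the vasa arrays, and that of 9 germline markers from 11128 to 13449 and from 11232 to 14063. No follicle cell marker was called, while 2 of the 10 had arrays apart toward uap56 and 0 toward vasa. Of the germline markers nos was called, with a ratio of means of 1.61 toward uap56 (adjusted p = 0.0171 in limma). The median of the 9 was -0.48, and 4 had arrays apart toward vasa, with nos alone apart toward uap56. Arrays were apart toward uap56 in 13.5% of all genes and toward vasa in 10%. Markers of the muscle sheath (6 measured), fat body (4), hemocytes (4), testis (4) and gut (3) had 0 calls, and their summed signals overlapped between the groups. The testis sum was nearly all CycB3 (mean 893), since Mst87F, dj and aly had means of 11.3, 12.3 and 26.1. That sum thus rests on CycB3 alone and is not read as a measure of testis tissue. The testis list had 2 further genes that were not analysed here. The part of cell composition in the differences above was not tested.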

How the data were processed

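The deposited values are intensity per RefSeq transcript, summarised and normalized by the authors per the labels, from tiling arrays with a biotin label on double-stranded DNA. The sources used here do not name software, probe choice or genome build. Precision is limited by the number of arrays. The transposon tables were not used.

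Values were put on the log2 scale without a pseudocount, the lowest value above 0 being 1. The 393 of 21158 entries at 0 on all arrays were left out. Entries were joined to genes by accession (19234), by name (1314) or kept as named (610). The entry with the highest mean stood for each of 13690 genes.

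The fit, uap56 minus vasa, used limma 3.58.1 under R 4.3.3 (lmFit, then eBayes with trend and robust options, two-sided, Benjamini-Hochberg over all genes, threshold 0.05). The same fit was run on simulated data with independent noise for each gene. These data held no shift shared by genes on an array, so the run does not cover such shifts. Paralogue ratios had an exact permutation test. The members, the lists and the choice of fit were made with earlier results of these data known. Genes named are paralogues, members called, the 6 largest differences each way, the 5 brightest and dimmest, and a set by role. All other members named, such as RpL12 or RpS3A, were chosen after their values were seen.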

Additional observations from a re-analysis of the deposited data

How the results depend on the processing

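The number of members called toward uap56, 1 in the fit used, was 0 at a threshold of 0.01 (0.234% of all genes), 0 with a single variance prior (0.0073%) and 0 with the replicate number as a block (1.02%). It was 4 after quantile normalization (2.75%), 4 after centring on array medians (2.71%), 6 among genes above the 25th percentile (4.64%), 4 with a pseudocount of 16 (2.70%), 2 with the mean over entries (2.52%) and 4 in the fit over all entries (2.9% of entries). Toward vasa it was 0, and 5 after quantile normalization (2.51%). Leaving out 1 array gave 0 to 12 toward uap56, the 12 without vasa replicate 1 (1.99%), and 0 toward vasa. With arrays centred on the members' own medians, an alternative chosen after seeing the data, 2 passed toward uap56 (RpS12 and RpS16, with 0.760% of all genes) and 4 toward vasa (RpL3, RpL12, RpL27 and RpL31, with 2.21%). This centring moved the difference of every gene toward vasa by the same amount. RpS12 went from 0.70 to 0.49 and RpL27 from -0.76 to -0.98, so the calls each way depend on that shift. No median over members was taken with that centring or in the fit over all entries. Across the other alternatives the median over members was -0.02 to 0.20, and 0.02 to 0.20 without 1 array. Large minus small ran from -0.116 to -0.0284 without 1 array and kept its sign.

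With the replicate block the adjusted p of RpS12 was 0.0908. A uap56 and a vasa array sharing a number showed almost no common deviation (r = 2.88e-05, -0.000917 and -0.0281). These r values were not compared with those of arrays of unequal number. They therefore cannot decide whether the numbers pair samples, and the result with the block stands beside the main fit. Changes of sign were counted for 42 named members only. Of these, RpS18 (-0.10), RpS27A (-0.10), RpS28b (-0.0211) and RpS29 (-0.10) changed sign after quantile normalization. The median over all 83 members also fell below 0 there, to -0.02, so other members changed sign as well. Members outside these 42 crossed 0 over the alternatives too, such as RpL30 (-0.205 to 0.133) and RpS3A (-0.153 to 0.0861). Among the 42, leaving out 1 array changed the sign of 6 with differences near 0. It also changed the sign of RpL37b and RpS28a, whose values at or near the floor give no direction. The log2 differences ran over -0.13 to 0.13 for RpL34a, -0.123 to 0.0928 for RpL37a, -1.96 to 0.77 for RpL37b, -0.0993 to 0.0533 for RpL40, -0.15 to 0.0016 for RpLP1, -0.207 to 0.0164 for RpS6, -0.0141 to 0.273 for RpS10b and -2.60 to 2.38 for RpS28a. The differences in log2 paralogue ratio, of which those of RpL37 and RpS28 rest on such low values, ran from -0.853 to 1.91 for RpL37, -0.0228 to 0.0684 for RpS14 and -2.83 to 2.31 for RpS28. Of 586 values of 42 named members under alternatives, 533 kept direction and side of the threshold, 28 came to pass it, 7 lost it (all RpS12) and 18 changed sign. The causes were not tested.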
